A study of Mus musculus with 16 samples.

Results

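Neural crest stem cells of the mouse that had been primed toward autonomic neurons were set against unprimed crest stem cells. The comparison holds 8 of the 16 arrays of the study. The 4 neuron-primed arrays are those titled Autonomic and the 4 unprimed arrays are those titled NCSCs, and each group is numbered 1 to 4. The unprimed cells are described by the submitters as migratory crest stem cells, and the primed cells as cells directed to a fate with instructive factors. The note on growth factor treatment is carried by all 16 arrays, and only the cell type label says that the NCSCs arrays were not primed. The remaining 8 arrays come from cells primed toward glia and toward mesenchyme, with 4 arrays each, and they enter only where a difference from those cells was tested. All 4 groups are mouse primary material of the neural crest, grown in culture, and no genetic change is named for any of them. The sources used here do not name the factors, the time of exposure, the age of the embryos or the number of embryos or cultures behind each array. The p-values therefore rest on the spread among arrays, which may be technical in part. The values are linear intensities deposited by the submitters for 45101 probe sets, taken here to log2, and each gene is represented by the probe set that was brightest on average over the 16 arrays, which left 18194 genes.

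The neural crest is a migratory population of the vertebrate embryo that gives rise to peripheral neurons and glia, to pigment cells and to part of the connective tissue of the head. Crest cells that become sympathetic and parasympathetic neurons are known to switch on transcription factors such as Phox2a, Hand2, Gata2 and Gata3, and later the enzymes of noradrenaline synthesis, Th and Dbh. Bone morphogenetic proteins are the textbook instructive signal for this fate, while Sox10, Foxd3, Tfap2a and the neurotrophin receptor Ngfr mark the crest stem cell.

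Over all 18194 genes, limma called 79 (0.434%) at a Benjamini-Hochberg adjusted p under 0.05, of which 24 were higher in neuron-primed cells (0.132%) and 55 lower (0.302%). Of the 79, 77 changed at least 2-fold and 37 at least 4-fold. The fall of cholesterol synthesis genes was the broadest change among the gene lists examined, with 12 of 20 measured members called lower and none higher. The rises were led by Pmepa1 and Spsb1, both known as brakes on TGF-beta signalling, and by Vgf, the precursor of neuropeptides stored in secretory granules. None of the 12 measured autonomic fate factors and none of the 21 measured genes of noradrenergic and cholinergic transmission passed the test. Before adjustment 1783 genes had a p under 0.05. Leaving out unprimed array 1, 2 or 4 gave 37, 43 and 31 calls, leaving out neuron-primed array 2, 3 or 4 gave 43, 38 and 36, and fitting only the 8 arrays compared gave 17 (5 higher, 12 lower).

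The split into higher and lower calls depended on how the arrays were scaled. As deposited, 30.4% of the calls were higher. After cyclic loess 74 genes were called, 30 higher and 44 lower (40.5% higher), and with each array centred on a list of housekeeping genes 86 were called, 57 higher and 29 lower (66.3% higher). The 14 measured genes of that list had a median change of -0.32 as deposited. Centring on them moved the median of all genes from 0.004 to 0.27 (log2), so changes below are relative to the deposited scale.

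Neuron-primed array 1 stood apart from the other 3 of its group, and it is shown separately throughout. Its correlation with neuron-primed arrays 2 to 4 over all genes was 0.899 to 0.927, and with the unprimed arrays 0.929 to 0.943. Arrays 2 to 4 correlated with each other at 0.92 to 0.95 and the unprimed arrays among themselves at 0.948 to 0.956. Without array 1, 237 genes were called (1.3%), 106 higher and 131 lower, and 77 of the 79 were among them. The called genes lost were Cnp and Srsf5. Without array 1 and unprimed array 4 together, 111 were called, 56 higher and 55 lower, and 53 of the 79 were among them. Xist, a transcript of the inactive X chromosome in female cells, read 3.15, 10.39, 7.55 and 10.58 on neuron-primed arrays 1 to 4 and between 6.39 and 10.52 on the unprimed arrays, so array 1 was the lowest of the 8. The ratio of the 3' to the 5' probe sets of Gapdh, a sign of RNA integrity and labelling, averaged 2.35 ± 0.187 (log2, SD, n = 4) in unprimed and 2.85 ± 0.242 (n = 4) in neuron-primed arrays (difference 0.505, exact permutation test, two-sided p = 0.0571, the smallest possible being 0.0286). The same ratio for beta-actin was -0.531 and -0.497 (exact permutation p = 0.8). The part of what Xist and these ratios reflect in the results below was not tested.

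Among the rises, Pmepa1 gave the largest change. It read 5.43, 3.95, 3.05 and 2.71 (log2 intensity) on unprimed arrays 1 to 4 and 8.01, 9.45, 9.06 and 9.59 on neuron-primed arrays 1 to 4. On the probe set used every neuron-primed array was above every unprimed array, and array 1 was the lowest of its group. The rise was 5.24 ± 0.54 (log2, SE; 37.8-fold, n = 4 and 4, limma adjusted p = 0.000447) and 5.58 without array 1. A dimmer Pmepa1 probe set read 2.698 on array 1, below every unprimed array (2.874 to 3.362), and 4.762 to 7.094 on arrays 2 to 4. The dimmest Pmepa1 probe set changed by 0.248, with overlapping groups. Spsb1, an adaptor for ubiquitin ligases that limits TGF-beta receptor levels, read 3.13, 5.10, 3.98 and 2.85 on the unprimed arrays and 7.50, 7.29, 8.39 and 7.71 on the neuron-primed arrays. Its rise of 3.96 ± 0.44 (15.5-fold, adjusted p = 0.000787) was shared by array 1, which lay among the other 3.

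Vgf read 4.67, 2.61, 3.99 and 2.87 on the unprimed arrays and 5.57, 9.99, 9.44 and 8.40 on the neuron-primed arrays. Array 1 was close to the highest unprimed array and the other 3 were far above it. The rise was 4.82 ± 0.83 (28.2-fold, limma adjusted p = 0.0198) with all arrays and 5.74 without array 1. The call was lost without unprimed array 2 or 4 or without neuron-primed array 2, 3 or 4 (change at least 4.27, adjusted p up to 0.0741 when a single array was left out). Vgf was the only called member of 11 measured secretory granule genes. Chga, the granule protein chromogranin A, had a change of 0.07 and Scg2 a change of 0.71, and neither passed.

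Cpm, a membrane-bound carboxypeptidase, read 2.30, 1.62, 2.48 and 1.98 on the unprimed arrays and 6.07, 5.05, 6.59 and 5.91 on the neuron-primed arrays, a rise of 3.81 ± 0.39 (log2, SE, limma adjusted p = 0.000447). Nfkbia, which holds NF-kappaB in the cytoplasm, read 6.35, 5.99, 5.75 and 4.91 against 7.99, 8.66, 8.39 and 8.66. It rose by 2.67 ± 0.33 (6.39-fold, adjusted p = 0.00166). On the probe sets used array 1 lay with or near its group for both genes. A dimmer Cpm probe set read 3.18 on array 1, against 4.55 to 5.12 on arrays 2 to 4. Other Nfkbia probe sets changed by 3.30, 2.23, 0.38 and 0.705. Array 1 was above the unprimed arrays on those with the larger changes of 3.30 and 2.23 only. The other largest rises were Sfxn3 (3.81), a mitochondrial carrier, Sipa1l2 (2.69), a Rap GTPase-activating protein, Unc5b (2.65), a netrin receptor, Ust (2.46), a sulfotransferase, Col2a1 (2.43), the main collagen chain of cartilage, Zfp644 (2.36), a zinc finger protein, and Furin (2.18), a proprotein convertase that processes TGF-beta and BMP precursors. On array 1 Furin was 7.18, close to the highest unprimed array at 7.05, against 9.09 to 9.66 on arrays 2 to 4. Col2a1 was called on its own within the cartilage and bone list of 11 measured genes.

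The calls of Pmepa1, Spsb1, Cpm, Nfkbia, Sipa1l2, Sfxn3 and Zfp644 held whichever of the 16 arrays was left out. Those of Furin, Unc5b and Ust were each lost in 7 of the 16 omissions. Furin and Unc5b lost theirs without any single unprimed array and without neuron-primed array 2, 3 or 4 (Furin 1.89 to 2.32, adjusted p up to 0.106, and Unc5b 2.31 to 2.73, up to 0.0992). Ust lost its call without unprimed array 1, 2 or 4, neuron-primed array 2, 3 or 4 or mesenchyme-primed array 1 (2.12 to 2.56, adjusted p up to 0.108). The call of Col2a1 was lost without neuron-primed array 3 or 4 (2.28 to 2.37, adjusted p up to 0.0576). For Ust the probe set used can match other transcripts, and the probe set of Ust alone, which is dimmer, changed by 0.27. The other 5 probe sets of Zfp644 changed by -0.46 to 0.74, and on the mean over its probe sets its change was 0.51 (adjusted p = 0.616).

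**Figure D1:**
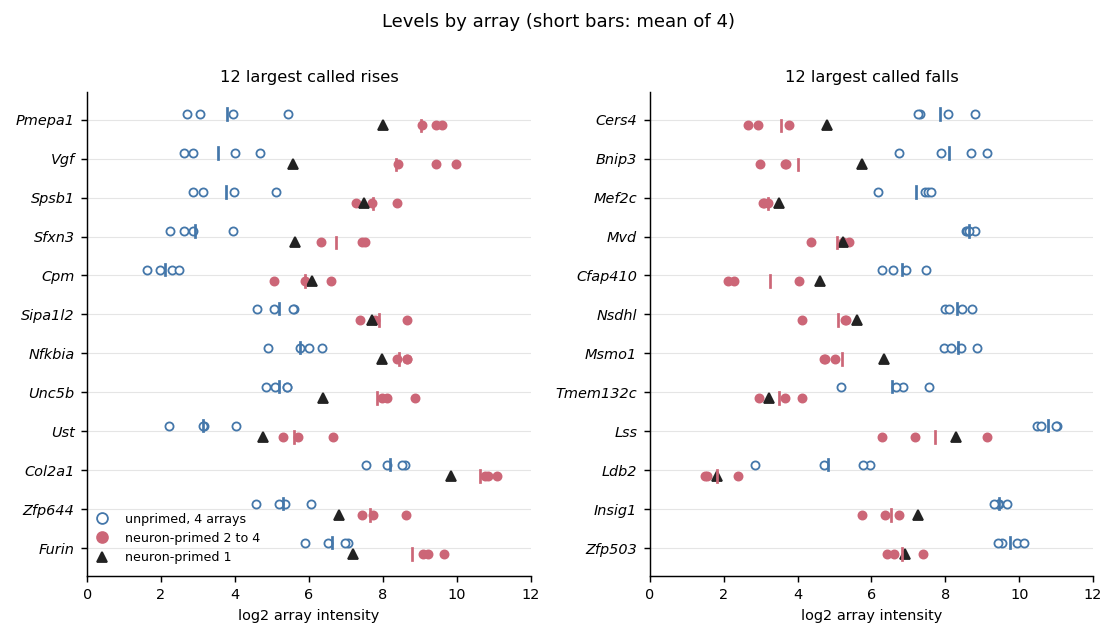
Log2 array intensity (horizontal axis) of the 12 genes with the largest called rises and the 12 with the largest called falls, with open circles for the 4 unprimed arrays, filled circles for neuron-primed arrays 2 to 4, a triangle for neuron-primed array 1 and short bars for the mean of 4. No gene has overlapping groups, because the genes were chosen from called genes without overlap. The triangle is the neuron-primed point nearest the unprimed arrays for most of these genes, such as Vgf (5.57), Furin (7.18) and Bnip3 (5.73).

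Cholesterol is made from acetyl-CoA by way of mevalonate, squalene and lanosterol, in a chain of enzymes whose genes are switched on together by the transcription factor SREBP2, the product of Srebf2, when membrane sterol is low. Insig1 holds that factor back when sterol is plentiful. All 20 measured genes of this list had a negative change, with a median of -1.80 against 0.004 over all genes, and in 17 of the 20 the groups did not overlap, against 5.53% of all genes. Mvd, the mevalonate diphosphate decarboxylase, read 8.80, 8.56, 8.59 and 8.63 on unprimed arrays 1 to 4 and 5.23, 5.22, 5.40 and 4.37 on neuron-primed arrays 1 to 4. It fell by 3.59 on the log2 scale (SE 0.24, limma adjusted p = 7.39e-06), and array 1 fell as far as the others. Early in the pathway Idi1 fell by 1.82 and Fdps by 2.12, the enzymes that make and join the isoprenoid units. At Sqle, which opens the committed step to sterols, the fall was 1.71 (adjusted p = 0.00166), with 9.10 to 9.38 on the unprimed and 7.16 to 7.81 on the neuron-primed arrays.

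Later in the chain Lss, the enzyme that closes lanosterol, read 10.48 to 11.01 on the unprimed arrays and 8.29, 6.27, 9.13 and 7.17 on the neuron-primed arrays, which were all lower but spread over a wide range. Its fall was 3.05 (SE 0.47, adjusted p = 0.00977). Msmo1, a sterol demethylating oxidase, read 7.97, 8.43, 8.16 and 8.87 against 6.34, 4.71, 5.02 and 4.75, and Nsdhl, which acts beside it, read 8.72, 7.98, 8.10 and 8.46 against 5.62, 5.29, 5.32 and 4.13. In both, array 1 was the highest of its group and still below every unprimed array. Nsdhl fell by 3.22 (SE 0.31, adjusted p = 0.000447) and Msmo1 by 3.15 (SE 0.54, adjusted p = 0.0198). Cyp51, Sc5d, Dhcr7 and Lbr fell by 1.78, 2.85, 2.74 and 1.27. Insig1 read 9.44, 9.44, 9.32 and 9.66 against 7.26, 5.74, 6.36 and 6.74, a fall of 2.94 (SE 0.33, adjusted p = 0.000787).

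The 8 measured members that did not pass were Hmgcs1 (-1.45), Mvk (-1.32), Pmvk (-1.08), Fdft1 (-1.40), Hsd17b7 (-2.36), Ebp (-0.87), Tm7sf2 (-1.77) and Srebf2 (-1.09). Hmgcs1, the synthase before mevalonate, read 12.49, 12.56, 12.46 and 12.66 on the unprimed arrays and 12.38, 10.16, 11.17 and 10.66 on the neuron-primed arrays. Array 1 was 0.08 below the lowest unprimed array and the other 3 were lower by over 1. The dimmer Hmgcs1 probe sets changed by -2.58 to -1.21, with array 1 below every unprimed array (such as 8.45 against 9.43 to 10.22). With array 1 kept, Hmgcs1 was called on the mean over probe sets (limma adjusted p = 0.00397). It was also called without probe sets matching several transcripts (adjusted p = 0.0288). Without array 1 the change of the Hmgcs1 probe set used was -1.88 (limma adjusted p = 0.00428) and 14 of the 20 were called. Left out singly, the other arrays of the 4 groups gave 8 to 13 called members, the count of 8 coming without unprimed array 2 or 4 or neuron-primed array 3 or 4, and the median stayed between -1.95 and -1.76. Calls lost in this way were those of Msmo1, Fdps, Dhcr7 and Lbr (adjusted p up to 0.0741, 0.0927, 0.105 and 0.115). Under the 3 other scalings 10 to 11 members were called, with medians of -1.73 to -1.54, and with only the 8 arrays compared in the fit 6 were called. The Msmo1 probe set used can match several transcripts of the gene or its relatives, and its other probe set, which is dimmer, changed by -0.20.

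**Figure D2:**
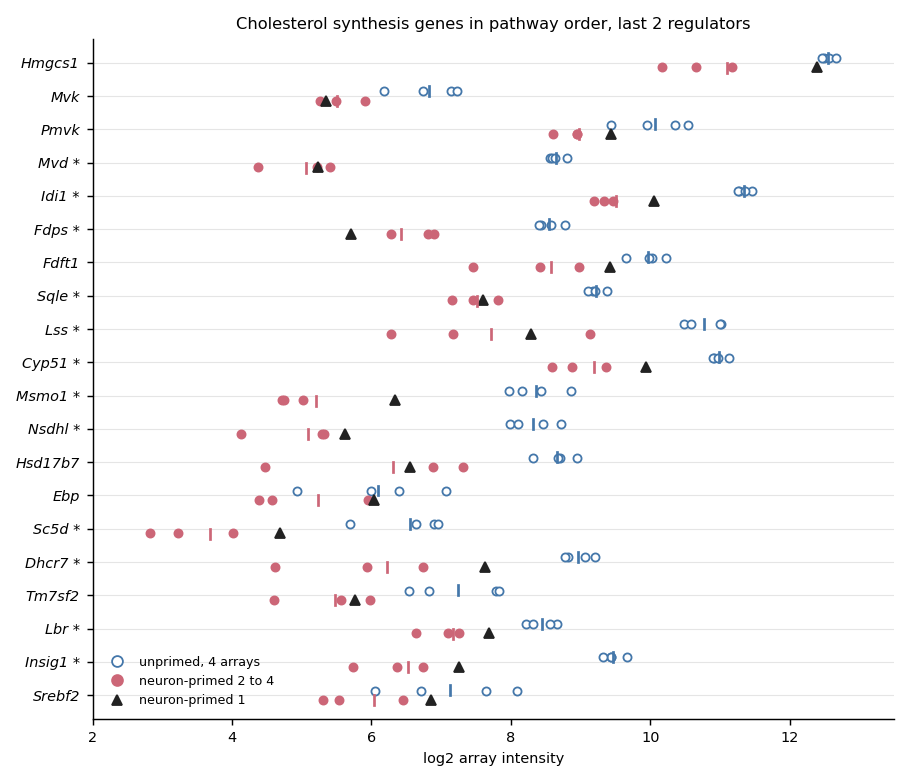
Log2 array intensity (horizontal axis) of the 20 measured cholesterol synthesis genes in pathway order from Hmgcs1 at the top, with the regulators Insig1 and Srebf2 last; symbols and bars are as in the plot of the largest changes, and an asterisk marks the 12 called genes. All 20 means are lower in neuron-primed arrays, and on array 1 (triangle) the Hmgcs1 probe set used stays at 12.38, near the 4 unprimed arrays.

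The promoters of these genes were read for short motifs because the genes moved together. RefSeq windows of 300 bases around each start (GRCm38.p6) matched 17 of the 20 measured genes and 10 of the 12 called genes. TCACNCCA, a core of the sterol regulatory element, was found on either strand in the windows of Hmgcs1, Msmo1 and Srebf2, 3 of the 17, and in 4.36% of all 32851 windows (5% of genes). CCAAT, the box bound by nuclear factor Y, which acts beside SREBP2 on known sterol promoters, was searched after the values had been seen. It occurred on either strand in all 17 windows and in 37.41% of all windows (41.1% of genes). The motifs do not overlap each other in the sequences below. A match is only a match of letters. The 250 bases before the start are shown for the first enzyme of the list and for a pair of neighbouring demethylation enzymes with large falls, and for Bnip3, the largest fall among hypoxia genes. Capitals mark TCACNCCA and CCAAT in the sterol genes (CCAAT reads ATTGG on the other strand). In Bnip3 they mark only ACGTG, the core of the hypoxia response element, which the palindrome CACGTG holds on both strands. The Bnip3 bases also hold CCAAT, left in lower case there. ACGTG was present in 19.62% of all windows. Hmgcs1 lies at chr13:119690101-119690350 (plus strand), Msmo1 at chr8:64733579-64733828 (minus strand), Nsdhl at chrX:72918271-72918520 (plus strand) and Bnip3 at chr7:138909507-138909756 (minus strand).
Hmgcs1: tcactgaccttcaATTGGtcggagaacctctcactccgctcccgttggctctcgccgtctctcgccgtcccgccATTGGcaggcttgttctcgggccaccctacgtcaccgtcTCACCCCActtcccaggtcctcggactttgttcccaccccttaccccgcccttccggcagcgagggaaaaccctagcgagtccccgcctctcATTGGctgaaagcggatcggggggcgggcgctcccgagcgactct
Msmo1: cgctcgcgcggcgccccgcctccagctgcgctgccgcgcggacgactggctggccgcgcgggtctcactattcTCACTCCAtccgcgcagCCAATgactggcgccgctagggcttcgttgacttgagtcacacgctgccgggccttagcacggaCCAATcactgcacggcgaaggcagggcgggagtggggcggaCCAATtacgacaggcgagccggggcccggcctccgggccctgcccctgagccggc
Nsdhl: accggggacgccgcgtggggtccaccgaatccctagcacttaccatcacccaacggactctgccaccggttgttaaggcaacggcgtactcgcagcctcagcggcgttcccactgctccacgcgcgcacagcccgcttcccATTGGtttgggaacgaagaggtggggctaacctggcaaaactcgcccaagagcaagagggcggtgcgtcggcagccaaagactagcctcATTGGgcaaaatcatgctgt
Bnip3: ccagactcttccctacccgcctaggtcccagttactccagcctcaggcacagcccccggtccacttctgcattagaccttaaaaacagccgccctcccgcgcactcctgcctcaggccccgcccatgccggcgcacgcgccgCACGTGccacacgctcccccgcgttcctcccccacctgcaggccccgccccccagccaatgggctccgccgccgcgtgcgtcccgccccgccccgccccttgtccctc

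Shown upstream bases hold 1 TCACNCCA and 3 CCAAT in Hmgcs1 and in Msmo1, and 2 CCAAT in Nsdhl. Hmgcs1 and Nsdhl carry 4 CCAAT each over the whole window. Hmgcs1 has both motifs and missed the test with all arrays on the probe set used, though not on the mean over its probe sets. Nsdhl, without TCACNCCA in its window, was among the strongest calls.

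Enzymes of fatty acid desaturation fell beside the sterol genes; they belong to no list and were picked after their values had been seen. Scd1, the main stearoyl-CoA desaturase, read 9.50, 9.86, 9.91 and 10.42 on the unprimed arrays and 7.87, 7.09, 6.85 and 7.04 on the neuron-primed arrays (fall of 2.71, SE 0.33, limma adjusted p = 0.00166). Scd2 fell by 2.37, Fads1 by 1.31 and Idh1, a cytosolic source of NADPH, by 1.88. Array 1 was the highest neuron-primed array for each of these 4 genes and remained below the unprimed arrays. The Fads1 call was lost without any single unprimed array or neuron-primed array 2, 3 or 4 (-1.37 to -1.18, adjusted p up to 0.088). A second Fads1 probe set changed by 0.26, and on the mean of both the change was -0.53 (adjusted p = 0.648).

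Glucose use and the response to low oxygen were examined as separate lists, beside 0.434% called over all genes. Of 19 measured glycolysis genes, 18 had a negative change (median -0.69) and 2 were called lower, with none higher. Pfkl, the liver-type phosphofructokinase, read 8.94, 9.88, 8.85 and 9.70 on the unprimed arrays and 7.77, 6.44, 6.53 and 7.62 on the neuron-primed arrays, a fall of 2.25 (SE 0.33, limma adjusted p = 0.00719). Tpi1, triosephosphate isomerase, fell by 1.10 (adjusted p = 0.0327). That call was lost without any single unprimed array or neuron-primed array 2, 3 or 4 (-1.18 to -1.01, adjusted p up to 0.111). It was also lost under the 3 other scalings (limma adjusted p = 0.0683 to 0.146). The Pfkl probe set used can match several transcripts, a second of that kind changed by -2.02, and a dim probe set of this gene alone by -0.02. Slc2a3, a glucose transporter, changed by -2.64 and Pdk1 by -2.18 without passing (adjusted p = 0.0579 and 0.0636). Of 21 measured hypoxia response genes 2 were called lower and none higher (0 to 4 called when single arrays were left out). Their median was -0.30, beside -0.32 for the housekeeping genes. Under the 3 other scalings the median was -0.215 to -0.032 for the hypoxia list and -0.616 to -0.431 for glycolysis.

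Bnip3, a mitochondrial protein of autophagy that low oxygen induces, read 7.88, 8.69, 6.74 and 9.13 on the unprimed arrays and 5.73, 3.66, 3.00 and 3.68 on the neuron-primed arrays. Array 1 lay between the groups. The fall was 4.09 (SE 0.79, 17.0-fold, limma adjusted p = 0.0333), and 4.66 without array 1. The call was lost without unprimed array 1, 2 or 4, neuron-primed array 2, 3 or 4 or mesenchyme-primed array 1 or 4 (-4.17 to -3.75, adjusted p up to 0.121). Ak4, a mitochondrial adenylate kinase, fell by 1.45 (adjusted p = 0.0252). It lost its call without unprimed array 1, 2 or 4 or neuron-primed array 2, 3 or 4 (-1.49 to -1.34, adjusted p up to 0.088). The Ak4 call was also lost with cyclic loess and on housekeeping genes (limma adjusted p = 0.062 and 0.0804). The same held on the mean over probe sets and without probe sets matching several transcripts (limma adjusted p = 0.0842 and 0.0585). Vegfa, a classical target of the same response, changed by 0.33 and Ddit4 by -0.21, and neither passed.

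**Figure D3:**
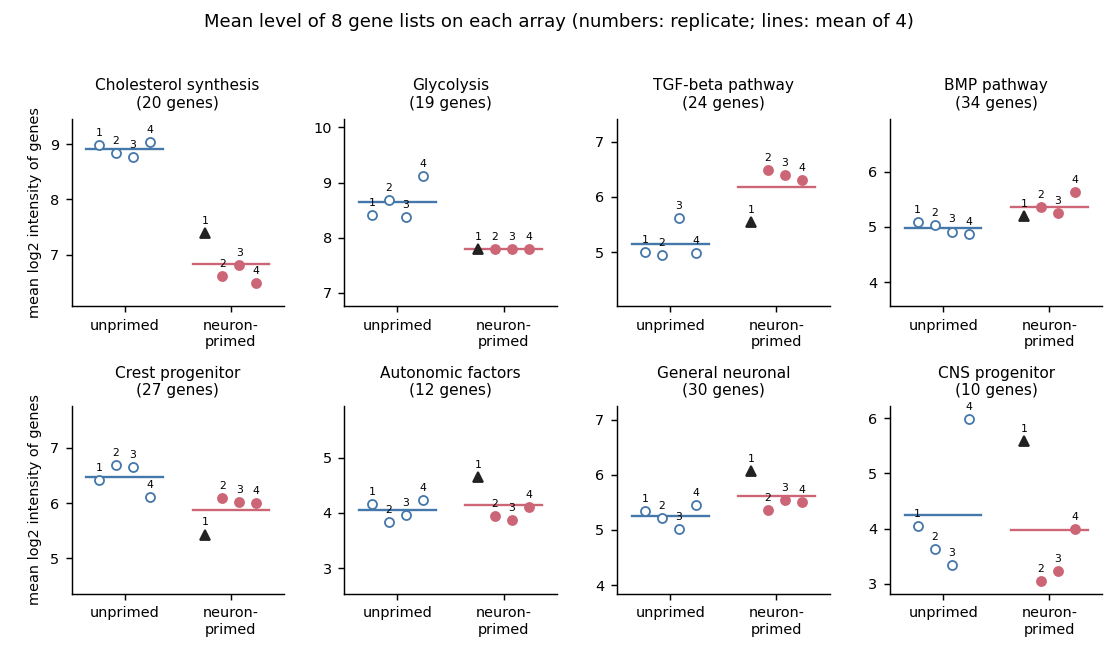
Mean log2 intensity of the measured members of 8 gene lists on each array (points, numbered by replicate; the triangle is neuron-primed array 1) with the mean of each group of 4 as a line; every panel spans the same height. Cholesterol synthesis lies at 8.77 to 9.04 on unprimed and 6.48 to 7.39 on neuron-primed arrays, while the CNS progenitor list is high on unprimed array 4 (5.98) and neuron-primed array 1 (5.59).

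Genes of the crest stem cell state were split. Of 27 measured, 3 were called lower and none higher, against 0.434% of all genes called. The median was -0.40 and moved to -0.04 without array 1. Mef2c, a MADS-box transcription factor needed in crest derivatives, read 7.45, 7.54, 7.61 and 6.18 on the unprimed arrays and 3.49, 3.06, 3.19 and 3.09 on the neuron-primed arrays. The neuron-primed arrays were tightly grouped and far below the unprimed ones, of which array 4 was the lowest. Mef2c fell by 3.98 (SE 0.42, 15.8-fold, limma adjusted p = 0.000506), and another 4 probe sets of the gene changed by -3.62 to -1.22. Ngfr, the p75 neurotrophin receptor by which crest stem cells are commonly isolated, read 9.38, 9.39, 9.20 and 8.32 against 5.57, 6.58, 5.91 and 7.22, a fall of 2.75 (SE 0.39, adjusted p = 0.00553). Mycn, a proto-oncogene of the sympathetic lineage, read 9.24, 9.34, 9.23 and 8.61 against 7.68, 6.89, 6.89 and 6.67, a fall of 2.07 (SE 0.30, adjusted p = 0.00719). These 3 calls held whichever array was left out, and Mycn missed the test on the mean over its probe sets (-1.11, adjusted p = 0.06).

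Sox10, the transcription factor that defines crest stem cells and glia, did not follow them. It read 8.74, 7.85, 8.39 and 6.44 on the unprimed arrays and 4.30, 8.07, 8.27 and 8.25 on the neuron-primed arrays. Arrays 2 to 4 were within the unprimed range and array 1 was below every unprimed array, so the change of -0.63 (adjusted p = 0.868) became 0.34 without array 1. Tfap2a (4.39 on array 1, 7.51 to 7.70 on arrays 2 to 4), Tfap2b (4.74 and 7.02 to 7.24), Ets1 (5.18 and 7.49 to 8.15) and Erbb3 (6.04 and 8.12 to 9.47) showed the same low array 1, and none of these 4 passed. Their direction also turned without array 1, to 0.19, 0.30, 0.31 and 0.30. The Tfap2a probe set used can match several transcripts. The other Tfap2a probe sets read 6.68 and 4.94 on array 1, against 6.13 to 8.52 and 6.17 to 8.54 on arrays 2 to 4. By the levels of Sox10, Tfap2b and Erbb3 the unprimed arrays carried the markers of their label, with array 4 the lowest of the group in each. Nes, an intermediate filament of neural stem cells, was called higher (1.77, adjusted p = 0.00647) and Lin28a, an RNA-binding protein of early progenitors, lower (-2.27, adjusted p = 0.0335) when array 1 was left out. With all arrays Nes was called on the mean over its probe sets (adjusted p = 0.0278).

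Phox2a, a factor of the autonomic lineage, was low in both groups. It read 2.09, 2.12, 2.08 and 1.94 on the unprimed arrays and 2.49, 2.49, 1.95 and 2.19 on the neuron-primed arrays, below the median probe set of each array (3.05 to 3.14 over the 16 arrays). The difference of 0.22 (SE 0.24, limma adjusted p = 0.841) was within the spread. Hand2 lay between 3.75 and 4.33 over all 8 arrays with a change of 0.09 (adjusted p = 0.939), and Gata3 between 1.83 and 2.76 with a change of 0.11 (adjusted p = 0.963). The sign of the Hand2 change turned without neuron-primed array 4 and that of Gata3 without neuron-primed array 1 or unprimed array 2. Over the 12 measured factors the median change was 0.08. Sox4 (8.30 to 9.10) and Sox11 (9.73 to 10.81), which many immature neurons and progenitors share, were bright on all 8 arrays, with changes of 0.08 and -0.09.

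Th, tyrosine hydroxylase, read 1.65, 2.74, 2.31 and 2.19 on the unprimed arrays and 3.86, 2.18, 2.52 and 2.41 on the neuron-primed arrays. Only array 1 was above the unprimed range, and the change of 0.52 (SE 0.38, adjusted p = 0.722) became 0.15 without it. Dbh, dopamine beta-hydroxylase, read 3.49, 3.99, 3.32 and 3.86 against 3.66, 4.48, 3.62 and 4.92, a change of 0.51 (adjusted p = 0.608) in which 2 of the neuron-primed arrays were above all unprimed ones. Over the 21 measured genes of transmission the median was 0.36. Cartpt, a neuropeptide precursor, was the only member whose groups did not overlap (0.90, adjusted p = 0.126), against 5.53% of all genes. Yy1, a widely expressed transcription factor, read 9.38, 8.90, 8.76 and 9.17 against 8.34, 8.38, 8.78 and 8.41, a change of -0.58 that did not pass.

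None of the 30 measured general neuronal genes was called with all arrays (median 0.23), and 2 were called without array 1, against 1.3% of all genes. Nefm, a neurofilament subunit, read 4.01, 4.77, 5.39 and 4.71 on the unprimed arrays and 5.53, 7.89, 7.84 and 5.56 on the neuron-primed arrays. The groups did not overlap, with arrays 2 and 3 well above and arrays 1 and 4 just above the unprimed arrays (1.98, adjusted p = 0.155, and 2.37, adjusted p = 0.0458 without array 1). L1cam, an adhesion molecule of growing axons, read 6.55, 5.63, 5.61 and 4.36 against 5.20, 7.30, 8.14 and 7.20, with array 1 inside the unprimed range (1.42, adjusted p = 0.386, and 2.00, adjusted p = 0.0423 without array 1). Both lost these calls when unprimed array 4 was left out as well, and the general neuronal count then returned to 0. Nefl (1.95), Dpysl3 (1.28) and Kif5c (1.43) were higher on all 4 neuron-primed arrays than on any unprimed array without passing. Groups did not overlap in 4 of the 30, against 5.53% of all genes. Tubb3, the neuronal tubulin, changed by 0.47 and Map2 by -0.88.

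**Figure D4:**
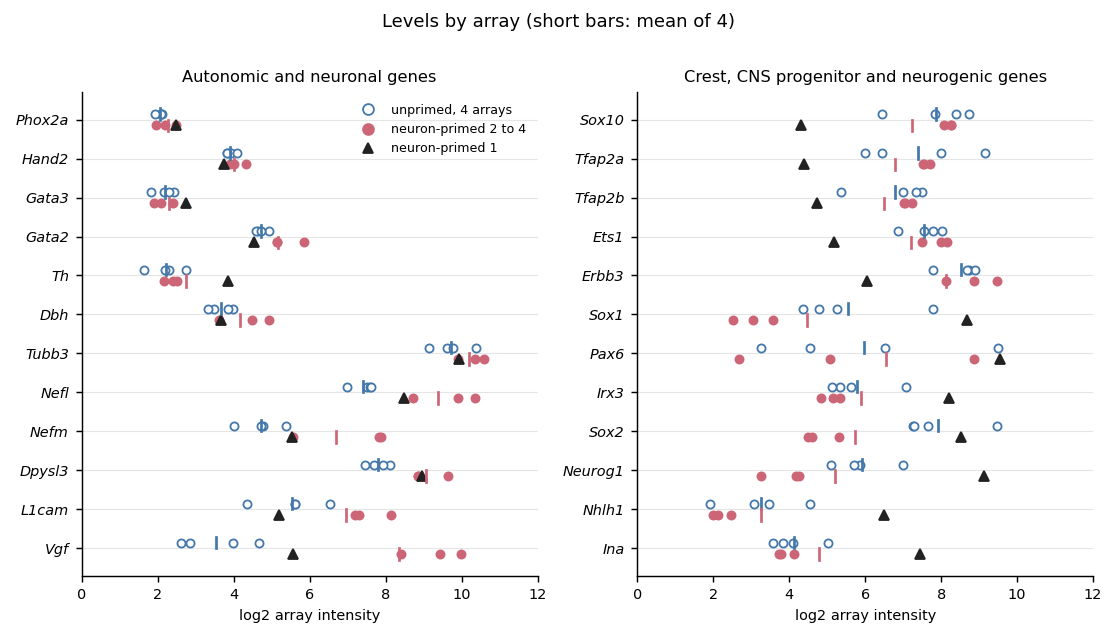
Log2 array intensity (horizontal axis) of autonomic and neuronal genes (left) and of crest, central nervous system progenitor and neurogenic genes (right); symbols and bars are as in the plot of the largest changes. Phox2a, Hand2 and Gata3 overlap between the groups, and neuron-primed array 1 (triangle) is low in Sox10 (4.30) and high in Sox1 (8.69), Neurog1 (9.14) and Ina (7.44).

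Array 1 differed from arrays 2 to 4 in genes of other neural fates. Sox1, a marker of the neural tube, read 5.27, 4.36, 4.79 and 7.79 on the unprimed arrays and 8.69, 3.57, 2.52 and 3.06 on the neuron-primed arrays. Irx3 was 8.19 on array 1 against 4.84 to 5.34 on arrays 2 to 4, and Pax6 was 9.54 on array 1, 9.49 on unprimed array 4 and 8.86 on neuron-primed array 4. A dimmer Pax6 probe set read 9.03, 8.11 and 3.25 on these arrays, and the remaining Pax6 probe sets read 2.42 to 4.41 on neuron-primed array 4. Neurog1, the proneural factor of sensory ganglia and the neural tube, read 9.14 on array 1 and 3.26 to 4.25 on arrays 2 to 4. The neuronal factors Nhlh1 (6.51), Nhlh2 (6.46) and Insm1 (4.54) and the neurofilament-related Ina (7.44) were also high on array 1 and low on the others, where they reached at most 2.47, 2.31, 2.42 and 4.13. The 10 genes of the CNS progenitor list, all measured, had a summed level (log2 of summed intensities) of 7.25 to 8.34 on unprimed arrays 1 to 3, 10.49 on unprimed array 4, 10.82 on neuron-primed array 1 and 6.95 to 9.30 on neuron-primed arrays 2 to 4. The 9.30 was on neuron-primed array 4, and each gene entered these sums by its brightest probe set. Of the 10 genes Otx2 stayed at or below 2.26 on all 8 arrays. None of the 10 was called. Sensory fate genes gave 0 calls of 10 with all arrays and 1 without array 1, Neurog2, which read 6.20, 4.88, 5.90 and 6.48 against 3.93, 2.65, 2.49 and 2.47 (-2.98, adjusted p = 0.057, and -3.33, adjusted p = 0.0237 without array 1). With array 1 kept, Neurog2 was also called under 7 other settings, among them array weights (adjusted p = 0.0341) and without mesenchyme-primed array 2 or 3 (adjusted p = 0.0387 and 0.029). The part of these markers in the other results was not tested, and the calls of Mvd, Mef2c, Pmepa1 and Spsb1 were as large without array 1.

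The array was then held out and its change compared with that of the others. Over the 237 genes called without it, 178 moved in the same direction on array 1, 80 reached at least 50% of the mean change of arrays 2 to 4, and 85 were within the range of the unprimed arrays. The median share was 27.1%, with 13.2% for the 106 rises and 44.3% for the 131 falls. For neuron-primed arrays 2, 3 and 4 held out in turn, 43, 38 and 36 genes were called on the remaining arrays, among them array 1, and the median share was 92.8%, 98.4% and 99.9%. The genes differ between these counts, and those for arrays 2 to 4 had to be called with array 1 included. Genes called without array 1 that were not called with the 16 arrays included rises of Rapgef3, a cAMP-activated exchange factor for Rap, Hbegf, a growth factor, Cryab, a small heat shock protein, Cthrc1, Fgd5 and Hmga2-ps1, and falls of the chemokine receptor Cxcr4, Fgfbp3, Lrrn1, the sterol carrier Stard4, Neurog2 and the Notch ligand Dll1. With array 1 kept, Hbegf, Cryab, Cthrc1, Stard4 and Neurog2 were called under some other settings. Rapgef3 read 1.20, 1.49, 1.46 and 1.57 on the unprimed arrays and 1.40, 8.27, 7.48 and 8.14 on the neuron-primed arrays, so array 1 was at the unprimed level (6.54, adjusted p = 0.00141 without it, and 4.89, adjusted p = 0.14 with it). The Rapgef3 probe set used can match several transcripts, and others of that kind changed by 4.065 and 0.842. A pair of dim probe sets of this gene alone changed by 0.10 and 0.20. Cxcr4 read 9.33, 8.87, 9.31 and 9.79 against 9.64, 5.26, 3.00 and 3.86, again with array 1 among the unprimed arrays (-5.28, adjusted p = 0.00221 without it). For Cryab the probe set used can match several transcripts, and another of that kind changed by 3.27. A dim probe set of Cryab alone changed by -0.02.

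**Figure D5:**
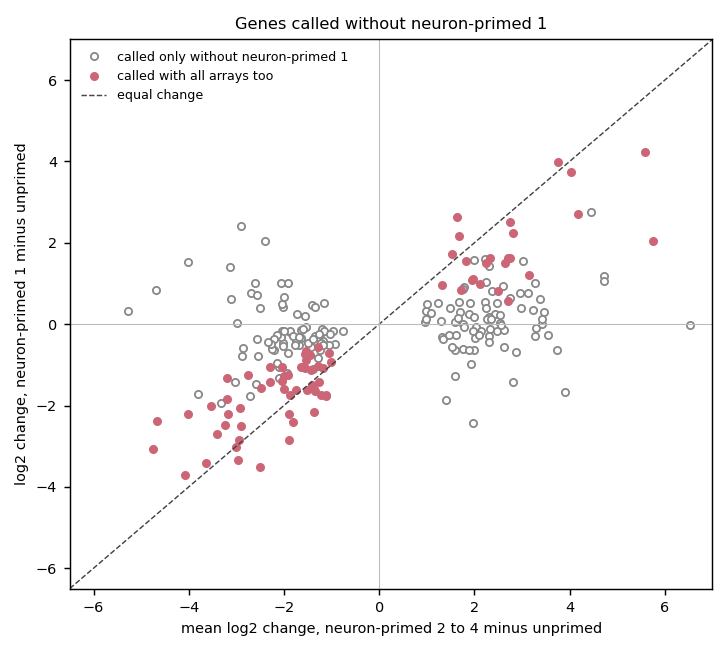
Log2 change from the unprimed mean on neuron-primed array 1 (vertical axis) against the mean change of neuron-primed arrays 2 to 4 (horizontal axis) for the 237 genes called without array 1; filled points were also called with all arrays and the dashed line marks equal change. On array 1, 80 of the 237 genes reach at least 50% of the change of the other arrays, and the median share is 27.1%.

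Signalling lists were read for the pathways that instruct crest fates. Over all genes 0.434% were called, and 1.3% without array 1. Of 24 measured TGF-beta pathway genes, 2 were called higher and none lower, and the median was 0.84 against 0.004 for all genes. Both were the feedback genes Pmepa1 and Spsb1. Without array 1 there were 5, adding Ccn2 (2.80), a matrix-associated growth factor, Itga5 (2.76), the fibronectin receptor subunit, and Tagln (2.53), an actin-binding protein. The Itga5 probe set used can match several transcripts, and its 3 other probe sets, which are dimmer, changed by 0.23 to 0.36. Ccn2 read 5.95, 4.75, 7.44 and 5.83 on the unprimed arrays and 4.58, 9.54, 8.47 and 8.37 on the neuron-primed arrays, with array 1 below all unprimed arrays. Col1a1 changed by 4.25 (adjusted p = 0.13), with 7.62 on unprimed array 3 above the 7.21 of array 1. The receptors Tgfbr1, Tgfbr2 and Tgfbr3 had changes of -1.14, -0.72 and -1.48, and none passed. No BMP pathway gene of 34 measured was called with all arrays (median 0.33). Among its targets Id3 read 6.94, 7.46, 6.69 and 6.98 against 7.55, 7.89, 8.10 and 7.80, without overlap (0.82, adjusted p = 0.197), and the receptor Bmpr2 was likewise higher on every neuron-primed array (1.43, adjusted p = 0.185). In 4 of the 34 the groups did not overlap, against 5.53% of all genes. Id1 and Smad6 changed by 0.38 and 0.11. Bmp5, a ligand, was called without array 1 (3.30, adjusted p = 0.0157).

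Few genes of the remaining lists were called, where 0.434% of all genes were (1.3% without array 1). Among 22 measured genes of the cAMP and immediate early response none was called, and Fosl2 was called without array 1 (3.22, adjusted p = 0.00392). Of 15 neurotrophin and GDNF receptor genes, Ngfr alone was called. No Notch pathway gene of 16 was called with all arrays, and Dll1 fell without array 1 (-3.14, adjusted p = 0.0467). DNA replication genes had a median of -0.52, with 28 of 31 changes negative and 2 calls, Tk1 (-1.96, adjusted p = 0.0333), thymidine kinase, and Gins2 (-1.37, adjusted p = 0.043), a part of the replicative helicase. Tk1 lost its call without any single unprimed array, neuron-primed array 2 or 4 or mesenchyme-primed array 1 (adjusted p up to 0.109). Gins2 lost its call in 13 of the 16 single omissions, those of every array but neuron-primed array 1, glia-primed array 3 and mesenchyme-primed array 4 (adjusted p up to 0.149). Neither was called when arrays were centred on housekeeping genes, and under the 3 other scalings the median of this list was -0.455 to -0.26. None of 27 mitosis genes was called. Markers of other cells the cultures could hold gave no call in the smooth muscle list (18 measured), the matrix list (19), the melanocyte, endothelial, blood, macrophage and skeletal muscle lists and the epithelial and pluripotent lists. Summed levels of the smooth muscle list (log2 of summed intensities) were 12.91 to 13.70 on unprimed and 13.11 to 14.37 on neuron-primed arrays, and those of the matrix list 10.48 to 11.30 and 10.66 to 12.72, with array 1 the lowest neuron-primed array in both. Without array 1, 3 genes of each were called higher, among them Tagln, Postn and Thbs1, against 1.3% of all genes called. A test of group means does not show a level raised on single arrays. Summed levels of the blood list were 6.01, 7.12, 8.76 and 4.84 on unprimed arrays 1 to 4. They were 4.84 to 5.06 on neuron-primed arrays 1 to 3 and 9.14 on neuron-primed array 4. The highest sums of the skeletal muscle and epithelial lists were 8.18 on unprimed array 3 and 9.29 on neuron-primed array 2. Of 22 Schwann and glial genes Cnp, a myelin enzyme, and Ngfr were called lower. Cnp fell by 2.90 (adjusted p = 0.0465) and lost its call in 13 of 16 single omissions (adjusted p up to 0.144), those of every array but neuron-primed array 2, glia-primed array 4 and mesenchyme-primed array 3.

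The falls outside these lists were led by Cers4, a ceramide synthase, which read 7.33, 7.25, 8.79 and 8.07 on the unprimed arrays and 4.80, 2.66, 2.93 and 3.77 on the neuron-primed arrays. It fell by 4.32 (SE 0.67, 20.0-fold, limma adjusted p = 0.00977), and array 1 lay between the other neuron-primed arrays and the unprimed ones. A pair of dimmer Cers4 probe sets changed by -0.40 and -0.55. Zfp503, a zinc finger repressor, fell by 2.92, Tmem132c by 3.06 and Ldb2, a cofactor of LIM-domain transcription factors, by 3.02. The other probe set of Zfp503 changed by -0.49 and that of Tmem132c by -1.51, each with overlapping groups. The calls of Zfp503 and Ldb2 were lost in 7 and 5 of the 16 single omissions (adjusted p up to 0.107 and 0.0737), Zfp503 without any unprimed array or neuron-primed array 2, 3 or 4, and Ldb2 without unprimed array 1, 3 or 4 or neuron-primed array 2 or 4. Ldb2 read 2.85 on unprimed array 2 and 4.72 to 5.95 on the other 3. Its probe set can match several transcripts, the other probe sets changed by 0.20 and -0.92, and the call was lost on their mean (adjusted p = 0.321). For Cfap410 the fall of 3.56 came from a probe set that can match several transcripts, and its own probe set changed by 0.04.

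Neuron-primed cells were also set directly against the other primed cells, with the same neuron-primed arrays in each contrast. Against glia-primed cells 2 genes were called (0.011%) and 1135 had an unadjusted p under 0.05. Mef2c was 4.23 lower in neuron-primed cells (log2, SE 0.42, limma adjusted p = 0.00119), with a mean of 3.21 ± 0.20 (SD, n = 4) against 7.44 ± 0.95 in glia-primed, 7.84 ± 0.41 in mesenchyme-primed and 7.20 ± 0.68 in unprimed cells. Vat1l, a protein related to a vesicle amine transporter, was 2.76 higher (SE 0.34, adjusted p = 0.0101), with 7.25 ± 0.32 in neuron-primed, 4.49 ± 0.71 in glia-primed, 4.60 ± 0.52 in mesenchyme-primed and 5.46 ± 0.39 in unprimed cells. Without array 1 there were 7, adding Vgf (4.84 higher, adjusted p = 0.0142), Mycn (-2.02, adjusted p = 0.0367), Rdh10 (2.71), Capg (2.43) and Zfp469 (2.16). None of the 20 sterol genes was called between them, and their median difference was 0.27. Single differences ran from -0.65 (SE 0.42) for Sc5d to 1.82 (SE 0.58) for Ebp, with Mvd at -0.22 (SE 0.24) and Cyp51 at 0.70 (SE 0.26). Pmepa1 (9.03 and 9.18) and Furin (8.79 and 8.80) were likewise not called, with differences of -0.15 (SE 0.54) and -0.01 (SE 0.41), and neither these nor the sterol values exclude larger differences.

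Against mesenchyme-primed cells 63 genes were called (0.346%), 25 higher and 38 lower, and 141 without array 1. Of the 79 genes called against unprimed cells 31 were called here too, and the arrays of neuron-primed cells are shared by both contrasts. Mean levels in mesenchyme-primed and unprimed cells were 7.80 and 8.64 for Mvd, 9.09 and 9.46 for Insig1, 9.07 and 9.21 for Sqle and 5.57 and 6.54 for Sc5d, a difference that was not tested, and 8 of the 20 sterol genes were called lower in neuron-primed than in mesenchyme-primed cells. Vgf was 5.41 higher in neuron-primed cells (SE 0.83, limma adjusted p = 0.00825), Cpm 3.50 higher (adjusted p = 0.00145), Mef2c 4.63 lower (adjusted p = 0.000185), Bnip3 4.95 lower (adjusted p = 0.0114) and Ngfr 3.07 lower (adjusted p = 0.00356). Pmepa1 at 8.09 and Col2a1 at 10.53 in mesenchyme-primed cells were not called between these groups, and nor was Sipa1l2 at 7.55.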

How the data were processed

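RNA of 16 arrays (4 per group) was labelled from 2 ug of total RNA by one-cycle amplification, per the labels. The linear intensity values deposited by the authors for 45101 probe sets had been made with RMA, per the submitters' processing notes; its version is not given there, and raw scans were not analysed here. The values ran from 1.487 to 31600. The planned test assumed log2 values, so log2 was taken here from the deposited intensities. Of the probe sets, 34958 carried 1 gene symbol, 932 several and 9211 none. Symbols were updated through Entrez identifiers to GRCm38.p6 for 99.4%. The brightest probe set over the 16 arrays stood for each of 18194 genes, and no array duplicated another.

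Group means were fitted to all 16 arrays with limma 3.58.1 (lmFit, eBayes; R 4.3.3; 12 residual degrees of freedom), which was tested on simulated data. All adjusted p-values are two-sided, from limma, with Benjamini-Hochberg adjustment over all genes, and a gene was called at an adjusted p under 0.05. Errors of changes are standard errors. Genes named are the 12 largest called rises and falls without overlap, called members of the lists, Phox2a, Hand2, Gata3, Th, Dbh, Sox10 and Yy1, and the 6 largest rises and 6 largest falls called without neuron-primed array 1 and not with all arrays; some genes of this rule and of the lists are not reported here. Examples from lists, and Scd1, Scd2, Fads1, Idh1, Srsf5 and the genes called against glia-primed cells, were picked after their values were seen. The arrays to compare and the gene lists were chosen with earlier results of these data known. Alternatives covered the log2 offset, 3 scalings, dim genes, probe set choice, limma options, the samples fitted, a replicate block and leaving out arrays.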

Additional observations from a re-analysis of the deposited data

Results flagged for a closer look

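For each named or example gene the highest and the lowest of the 4 arrays of a group were compared with the other 3. An array is listed where its gap to the nearest of the others, over the range of the group, passed Dixon's 95% critical value, which chance alone passes in about 1 of 20 groups. Of 216 groups tested 24 passed, 17 of them through neuron-primed array 1 and 4 through unprimed array 4; genes of one array are not independent. Many of the genes were picked after their values were seen, some because array 1 differed in them, so these counts cannot be set against the chance rate. Values are log2 intensities.

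Neuron-primed array 1 was far above arrays 2 to 4 in Fgfbp3 (8.11, against 2.27 to 2.76), Neurog2 (3.93, against 2.47 to 2.65), Sox1 (8.69, against 2.52 to 3.57), Irx3 (8.19, against 4.84 to 5.35), Neurog1 (9.14, against 3.26 to 4.25), Nhlh1 (6.51, against 1.99 to 2.47), Nhlh2 (6.46, against 1.87 to 2.31), Insm1 (4.54, against 2.27 to 2.42), Ina (7.44, against 3.73 to 4.13) and Mcm2 (8.18, against 6.76 to 6.96). It was far below them in Sox10 (4.30, against 8.07 to 8.27), Rapgef3 (1.40, against 7.48 to 8.27), Fgd5 (2.89, against 7.95 to 8.71), Tfap2a (4.39, against 7.51 to 7.70), Tfap2b (4.74, against 7.02 to 7.24), Tpm1 (11.98, against 13.20 to 13.24) and Postn (5.33, against 8.89 to 9.34). The genes it was high in include the neural tube and neurogenic factors Sox1, Irx3, Neurog1, Neurog2, Nhlh1, Nhlh2 and Insm1, and those it was low in include the crest factors Sox10, Tfap2a and Tfap2b. Other Tfap2a probe sets read 6.68 (against 6.13 to 8.52) and 4.94 (against 6.17 to 8.54) on this array, so Tfap2a was not low on each of them.

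Unprimed array 4 was far below the other unprimed arrays in Mef2c (6.18, against 7.45 to 7.61) and Mycn (8.61, against 9.23 to 9.33) and far above them in Gins2 (9.40, against 8.83 to 8.88) and Olig2 (4.79, against 1.27 to 1.58), a factor of motor neuron and oligodendrocyte progenitors. The remaining cases were Nhlh2 on unprimed array 1 (4.19, against 1.96 to 2.11), Yy1 on neuron-primed array 3 (8.78, against 8.34 to 8.41) and Dpysl3, a protein of growing axons, on neuron-primed array 2 (9.66, against 8.84 to 8.95).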

How the results depend on the processing

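Against unprimed cells the count of called genes ran from 31 to 237 when single arrays were left out (lowest without unprimed array 4, highest without neuron-primed array 1), and was 17 with only the arrays of the groups compared, 63 with a replicate block and 68 to 103 under the other settings with all arrays. Same-numbered arrays did not deviate together over all genes (correlations of -0.067 to 0.01 between the 2 groups). With 4 arrays a group these correlations cannot show whether same-numbered arrays share material, which the sources used here do not state. Xist was lowest on array 1 and next lowest on array 3 in both groups (6.39 and 9.81 unprimed, 3.15 and 7.55 neuron-primed). Whether the numbers pair the arrays was not tested further. Of the 79 calls, 56 were among the 63 of the block. Against glia-primed cells the counts were 2 to 7 over single omissions, 0 with only the groups compared and 6 without neuron-primed array 1 and unprimed array 4, a setting chosen after seeing the data. Against mesenchyme-primed cells they were 36 to 141, 26, 140, and 101 on housekeeping genes (68 higher, 33 lower). Over the genes and settings, 2682 values kept direction and side of the threshold, 204 lost the call, 73 gained it and 47 turned sign, none of the 47 being a called value except Cfap410. Sign turned in single omissions, with the range over all of them, for Erbb3 (-0.844 to 0.30), Ets1 (-0.674 to 0.314), Foxd3 (-0.737 to 0.279), Gata3 (-0.05 to 0.23), Hand2 (-0.022 to 0.173), Hes5 (-0.975 to 0.124), Ina (-0.245 to 0.993), Insm1 (-0.084 to 0.672), Irx3 (-0.684 to 0.517), Mcm2 (-0.068 to 0.473), Nhlh1 (-1.059 to 0.451), Nhlh2 (-0.447 to 1.176), Olig2 (-1.168 to 0.007), Pax6 (-0.42 to 1.866), Sox10 (-1.102 to 0.342), Tfap2a (-1.078 to 0.189) and Tfap2b (-0.764 to 0.302). It also turned without both named arrays (Gata3 -0.012, Irx3 -0.254, Nhlh1 -0.628, Nhlh2 -0.632, Insm1 -0.132, Ina -0.345, Foxd3 0.232, Ets1 0.085 and Erbb3 0.051), with array weights (Pax6 -0.169, Irx3 -0.072 and Nhlh1 -0.27), with the mean over probe sets (Pax6 -0.111, Tfap2a 0.232 and Mcm2 -0.42), without probe sets matching several transcripts (Cfap410 0.04, Cryab -0.015, Tfap2a 1.169 and Mcm2 -1.109), with cyclic loess (Nhlh1 -0.023) and on housekeeping genes (Foxd3 0.012). The cause was not tested. Calls held in all 28 alternatives for Cers4, Cpm, Idi1, Insig1, Mef2c, Mvd, Nfkbia, Nsdhl, Pmepa1, Scd1, Sipa1l2, Spsb1 and Sqle. The number of arrays, 4 a group, limits the precision throughout.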
